A study of Arabidopsis thaliana with 9 samples.

Results

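Xyloglucan endotransglucosylase/hydrolases, or XTH enzymes, act on xyloglucan, the hemicellulose that coats and links cellulose microfibrils in the primary wall. They cut a xyloglucan chain and join the cut end to another chain, or to water, and are studied for their part in wall loosening, wall building and cell elongation. In seedlings kept in the dark the hypocotyl elongates strongly, so its walls are extended and remodelled. The genes described here are XTH16, XTH18, XTH19 and XTH33, taken as the probe sets that name them. Each of the 4 genes had 1 probe set that named no other gene, so all 4 were measured, out of 13350 genes named on the array. XTH16 is locus AT3G23730, XTH18 is AT4G30280, XTH19 is AT4G30290 and XTH33 is AT1G10550. The RefSeq table lists 33 XTH genes, of which 10 had a probe set named here, and the other 23 were not analysed here.

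Signals came from 9 arrays hybridised with RNA of whole Arabidopsis thaliana seedlings grown for 10 days in darkness, 3 arrays for each of 3 lines. The lines were wild type of the accession Col-0, L17, which the labels call a phyA' line, and sps1, and Col-0 is given as the genetic background of all 3. The labels give no treatment, and they do not say what construct or mutation L17 or sps1 carries, how many clones or plants each line stands for, or whether the arrays of a line came from separate plantings. The p-values therefore measure the spread between these arrays. Signals are on a linear, scaled intensity scale, and fold changes are differences of log2(signal + 16), which understates the change of dim genes. A gene was called changed at a limma adjusted p under 0.05 over all 22746 probe sets tested.

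Wild type replicate 3 differed most from its own line. On it 2838 probe sets lay over 2-fold from the mean log2 signal of the other wild type arrays, against 440 to 1085 on each of the other 8 arrays set against its own line. Array medians ran from 137.6 to 155, and sps1 had the lowest 3. One ubiquitin control pair, whose 3' to 5' signal ratio grows as transcripts are less complete, read 1.80 to 1.96 on wild type arrays, 2.24 to 2.43 on L17 arrays and 2.41 to 2.53 on sps1 arrays. The second ubiquitin pair on the array overlapped between the lines, at 0.931 to 1.27, 1.06 to 1.27 and 1.06 to 1.46. So did the actin pair, at 2.30 to 3.09, 2.36 to 3.04 and 2.62 to 2.82, and the GAPDH pair, at 1.02 to 1.45, 1.03 to 1.20 and 1.00 to 1.15. Wild type replicate 3 had the highest actin and GAPDH ratios of the 9 arrays, 3.09 and 1.45. Fits without wild type replicate 3 and with median centring are given with the results. The part of the control ratios in the results was not tested.

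The 4 genes did not move as a block. XTH16 was lower in both lines, XTH33 was higher in both lines, XTH18 was lower in sps1, and XTH19 separated sps1 from L17. In L17 against wild type 1 gene rose and 1 fell, and 2 did not pass the test, while limma called 11.4% of all probe sets, 5.32% higher and 6.12% lower. In sps1 against wild type 1 rose, 2 fell and 1 did not pass, with 14.6% of probe sets called, 6.68% higher and 7.94% lower. In sps1 against L17 2 were lower and 2 did not pass, with 6.86% called, 3.14% higher and 3.72% lower. Those shares include many dim probe sets, whereas all 4 genes had a mean signal of at least 100. In a fit of the 12907 probe sets at that signal or above, 25.1%, 30% and 17.1% were called in the 3 comparisons. That fit called 3, 3 and 2 of the 4 genes. Without wild type replicate 3 the members called numbered 2 in each comparison, beside 11.4%, 15% and 11.5% of probe sets. No member was higher in sps1 than in L17. At an unadjusted limma p under 0.05 4 of 4 were lower, beside 11.2% of all probe sets lower at that threshold. Of the 6 other XTH genes measured 2 were lower at that threshold, and 1 was called at the adjusted one. The 4 genes were chosen with earlier results of these data known, so their counts beside these shares are descriptive and test nothing. The median log2 fold change of the 4 genes was -0.04 in L17 and -0.93 in sps1 against wild type, and -0.76 in sps1 against L17, beside medians of 0.01, -0.01 and -0.02 over all probe sets. Both comparisons with wild type share the same 3 wild type arrays.

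**Figure D1:**
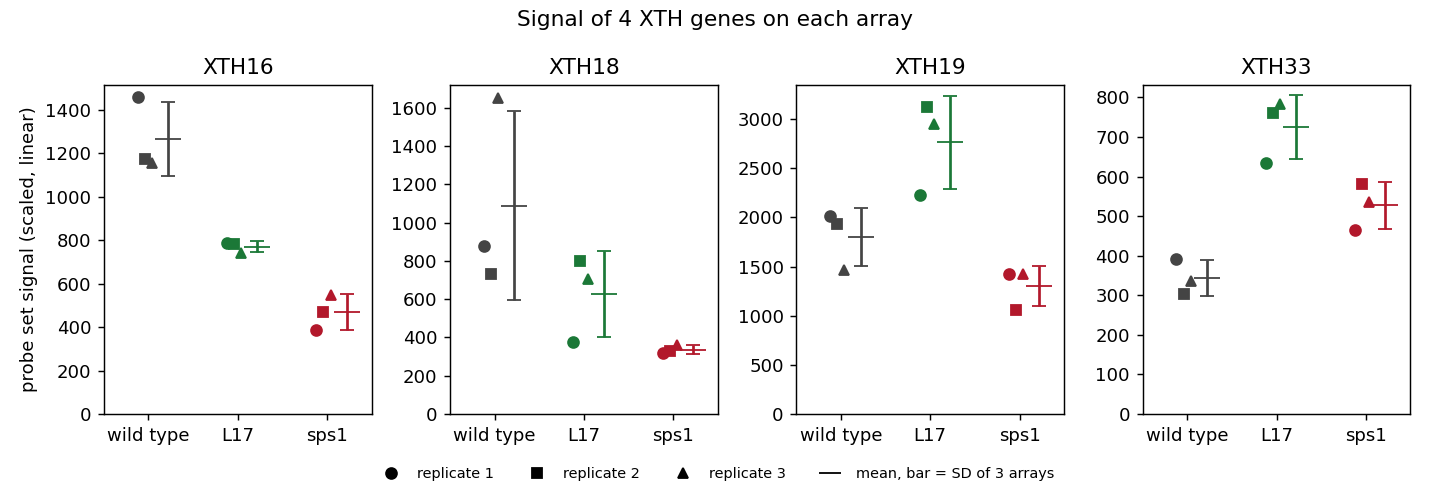
Probe set signal (linear, scaled) of XTH16, XTH18, XTH19 and XTH33 on each of 9 arrays, with symbols for the replicate number and, beside them, the mean and SD of the 3 arrays of a line. XTH16 steps down from wild type to L17 to sps1, XTH33 is highest in L17, XTH19 is highest in L17 and lowest in sps1, and wild type replicate 3 gives the highest XTH18 signal, 1653.

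XTH16 had the clearest graded order of the lines. Its signal was 1461, 1176 and 1158 on the wild type arrays, 786, 784 and 741 on the L17 arrays, and 387, 471 and 549.8 on the sps1 arrays. The 3 lines did not overlap, with every L17 array below every wild type array and every sps1 array below every L17 array. Relative to the wild type mean of 1265 ± 170.2, L17 stood at 60.9% and sps1 at 37.1% (SD, n = 3). The coefficient of variation was 3.36% in L17, 13.5% in wild type and 17.3% in sps1.

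XTH16 fell in sps1 by 1.41 on the log2 scale, with an SE of 0.16 and a 95% interval from -1.77 to -1.04 (limma adjusted p = 0.000801), which is 2.65-fold lower. The call held with each of the 9 arrays left out in turn, at adjusted p between 0.00161 and 0.00484. In L17 XTH16 fell by 0.70 on the log2 scale (interval -1.06 to -0.33, limma adjusted p = 0.0263), 1.62-fold lower. That call was lost on leaving out wild type replicate 1 or 2 or any 1 of the L17 arrays, at adjusted p between 0.0539 and 0.0815, and kept without wild type replicate 3 (0.0312). The step from L17 to sps1 was -0.71 (interval -1.08 to -0.34, limma adjusted p = 0.0337). It was lost after median centring (0.0532). It was kept on leaving out wild type replicate 1 or 3 or sps1 replicate 3, and lost on leaving out any of the remaining 6 arrays, at adjusted p between 0.052 and 0.115.

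XTH18 and XTH19 are neighbours in the genome, with no gene between them in the RefSeq order, and XTH24 on the far side of XTH18. Both are known from Arabidopsis as genes expressed in roots, and XTH19 is known to respond to auxin. Whether their probe sets also bind the neighbour's transcript was not analysed here.

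XTH18 read 879.7, 732 and 1653 on the wild type arrays, 375, 801 and 708 on the L17 arrays, and 319, 327 and 362 on the sps1 arrays. The 3 sps1 arrays lay below every array of the other lines, whereas L17 and wild type overlapped. The arrays of sps1 agreed closely, with a coefficient of variation of 6.85%, against 45.4% in wild type and 35.6% in L17. The wide spread in wild type came with the high value of replicate 3, and that in L17 with the low value of replicate 1.

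XTH18 fell in sps1 by 1.56 on the log2 scale, with an SE of 0.34 and a 95% interval from -2.34 to -0.78 (limma adjusted p = 0.0175), 2.95-fold lower than wild type. Without wild type replicate 3 the change was -1.22 and kept its call (adjusted p = 0.0307), while the call was lost without sps1 replicate 1 (0.0573) or 2 (0.0572). In L17 the log2 fold change was -0.76, with an interval from -1.54 to 0.02 (limma adjusted p = 0.209), moving to -0.42 without wild type replicate 3 and to -0.43 without L17 replicate 1. Between sps1 and L17 the difference was -0.80, with an interval from -1.59 to -0.02 (limma adjusted p = 0.232). XTH18 in L17 was thus not distinguishable by this test from wild type or from sps1, and its L17 mean of 627.8 ± 223.6 lay between theirs (SD, n = 3).

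XTH19 had another order. It read 2011, 1932 and 1461 on the wild type arrays, 2227, 3122 and 2947 on the L17 arrays, and 1424, 1062 and 1420.4 on the sps1 arrays. No arrays of 2 lines overlapped, with L17 above wild type and wild type above sps1, although wild type replicate 3 stood only just above the highest sps1 array.

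The largest XTH19 difference was between sps1 and L17, at -1.07 on the log2 scale with an SE of 0.20 and a 95% interval from -1.53 to -0.62 (limma adjusted p = 0.0154), 2.11-fold lower in sps1. Leaving out L17 replicate 2 (0.0674) or 3 (0.0575) or sps1 replicate 2 (0.0575) ended the call, and leaving out wild type replicate 3 gave an adjusted p of 0.00887. Neither line passed the test against wild type. L17 stood at 153.5% of the wild type mean (log2 fold change 0.61, interval 0.16 to 1.07, limma adjusted p = 0.088), and sps1 at 72.3% (log2 fold change -0.46, interval -0.92 to -0.01, limma adjusted p = 0.168). The call for XTH19 in L17 passed with a pseudocount of 64 (0.0463), among probe sets with a mean signal of at least 100 (0.0352) and with a trended and robust moderation (0.0252).

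XTH33 is known from Arabidopsis as an XTH with a predicted membrane anchor, unlike most of the family. It read 392, 304 and 335 on the wild type arrays, 634, 760.2 and 783 on the L17 arrays, and 465, 581 and 536 on the sps1 arrays. The lines did not overlap, with wild type lowest, sps1 between and L17 highest.

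XTH33 rose in L17 by 1.05 on the log2 scale, with an SE of 0.15 and a 95% interval from 0.69 to 1.40 (limma adjusted p = 0.00372), 2.07-fold higher than wild type. This was called with each of the 9 arrays left out, at adjusted p between 0.00631 and 0.0206. In sps1 it rose by 0.60 (interval 0.24 to 0.95, limma adjusted p = 0.0341), or 1.51-fold. That call was lost on leaving out wild type replicate 2 (0.102) or 3 (0.0597), L17 replicate 2 (0.0562), or sps1 replicate 2 (0.114) or 3 (0.1). It was also lost in a fit of the wild type and sps1 arrays alone (0.0692). Between sps1 and L17 the difference was -0.45, with an interval from -0.80 to -0.10 (limma adjusted p = 0.135), so these neighbours in the order of levels did not differ by the test although their arrays did not overlap.

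**Figure D2:**
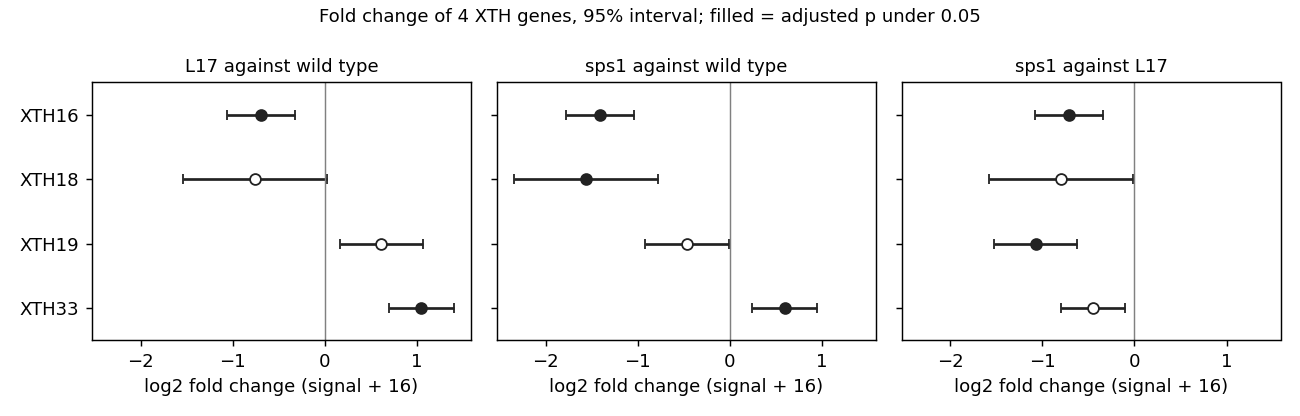
Log2 fold changes (signal + 16) of the 4 XTH genes in each comparison, as points with 95% intervals from the limma fit, filled where the adjusted p was under 0.05. In sps1 against L17 all 4 points lie below 0, from -1.07 for XTH19 to -0.45 for XTH33, whereas against wild type XTH33 lies above 0 in both lines.

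**Figure D3:**
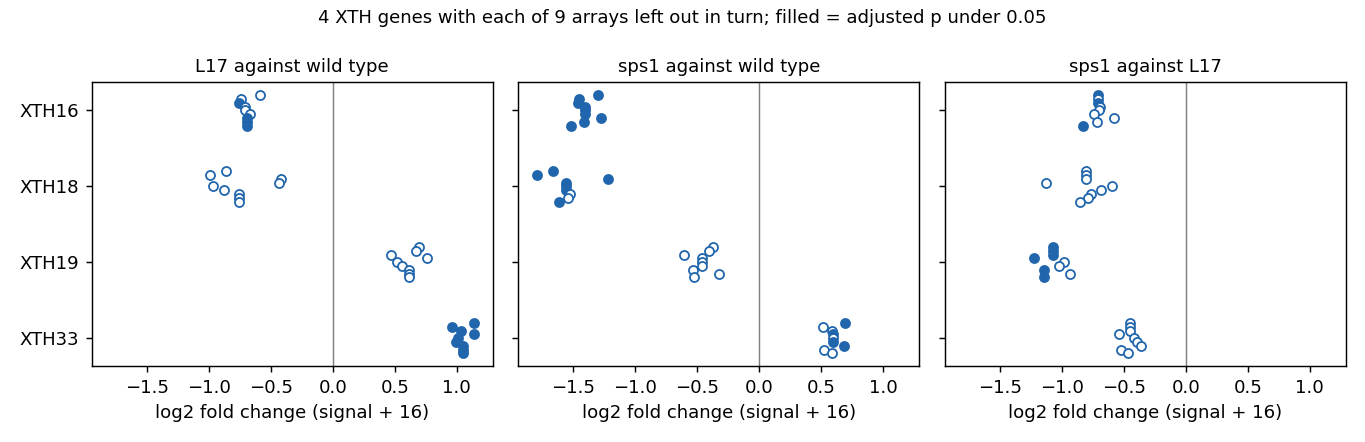
Log2 fold changes (signal + 16) of the 4 XTH genes with each of the 9 arrays left out in turn, 1 point per array left out, filled where the adjusted p was under 0.05. All 9 points are filled for XTH33 in L17 and for XTH16 in sps1, and no point crosses 0. Leaving out an array of the line not compared cannot move the fold change.

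Separation of the arrays by line was common on this platform. The arrays did not overlap for 3 of the 4 genes in L17 against wild type, for 4 of 4 in sps1 against wild type and for 4 of 4 in sps1 against L17. Over all probe sets the corresponding shares were 31.2%, 33.4% and 30.7%.

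The neighbouring genes XTH18 and XTH19 were also compared within each array, a comparison chosen after their values had been seen. The quantity was the log2(signal + 16) of XTH19 minus that of XTH18, whose absolute size depends on the probe sets and which is read here as a change between lines. It was 1.18, 1.38 and -0.18 on the wild type arrays, 2.52, 1.94 and 2.03 on the L17 arrays, and 2.105, 1.65 and 1.92 on the sps1 arrays. Each L17 and sps1 array was above every wild type array. The shift was 1.37 in L17 and 1.10 in sps1, each with p = 0.1 in an exact two-sided permutation test, the smallest p that 3 against 3 arrays allow (0.15 after adjustment over the 3 comparisons). Without wild type replicate 3 the shifts were 0.89 and 0.61. Between sps1 and L17 the difference was -0.27, and the arrays overlapped (exact permutation p = 0.4).

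**Figure D4:**
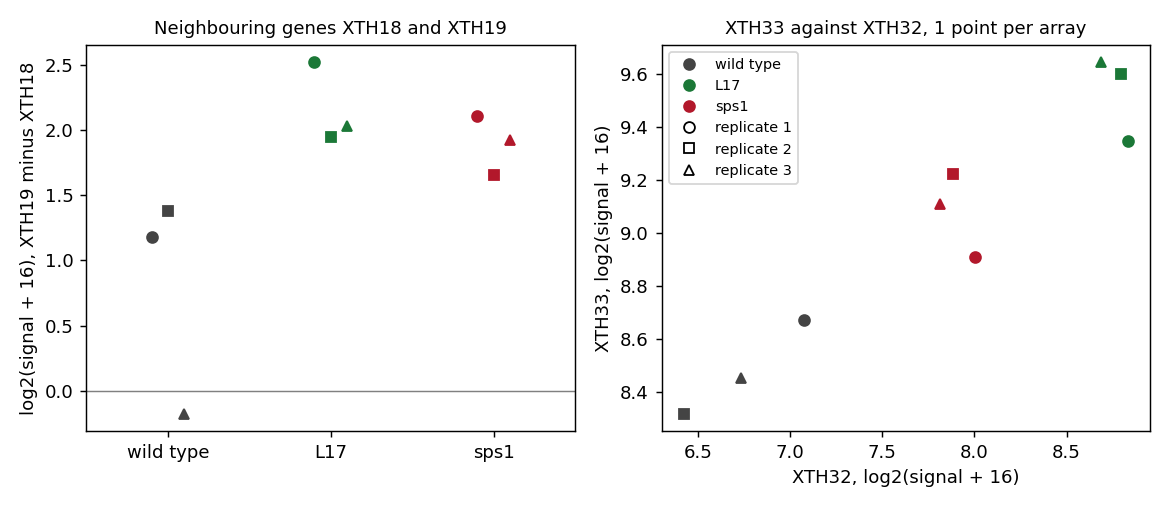
Left, log2(signal + 16) of XTH19 minus that of XTH18 on each array by line, lowest at -0.18 on wild type replicate 3 and highest at 2.52 on the first L17 array. Right, log2(signal + 16) of XTH33 against that of XTH32, 1 point per array, with wild type arrays at the lower left, sps1 arrays between and L17 arrays at the upper right.

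Of the 6 other XTH genes with a probe set, XTH32 was the one that changed against wild type. XTH32 belongs to the branch of the family in which an Arabidopsis enzyme is known to act mainly as a hydrolase. It read 119, 69.7 and 90.4 on the wild type arrays, 441, 429 and 396 on the L17 arrays, and 240.4, 220.2 and 209 on the sps1 arrays. The lines did not overlap, in the same order as XTH33. XTH32 rose by 2.03 in L17 (SE 0.17, limma adjusted p = 0.000236) and by 1.16 in sps1 (SE 0.17, limma adjusted p = 0.00299), both calls holding with each array left out. It was lower in sps1 than in L17 by 0.87 on the log2 scale (limma adjusted p = 0.0196), a call lost on leaving out any 1 of the L17 arrays or sps1 replicate 2 or 3 (adjusted p up to 0.0756).

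The remaining 5 did not pass the test in any comparison. XTH20, which with XTH17, XTH18 and XTH19 forms a close group of the family, averaged 53.8 ± 23 in wild type, with 48.5 ± 31.3 for L17 and 10.8 ± 11.8 for sps1 (SD, n = 3). Its log2 fold change in sps1 was -1.42, with a 95% interval from -2.39 to -0.45 (limma adjusted p = 0.0572). EXGT-A3, the gene for XTH27 and known from vascular tissue of leaves, averaged 5026 ± 666 in wild type, with 3854 ± 278 for L17 and 3716 ± 304 for sps1, and log2 fold changes were -0.38 and -0.43 (limma adjusted p = 0.14 and 0.0832). In sps1 XTH20 gave an adjusted p of 0.142 and EXGT-A3 passed (0.0371) when wild type replicate 3 was left out. XTH29 read 65.4 on wild type replicate 3 and at most 20.8 on the other arrays. XTH21, known in root growth, and XTH26, known from root hairs, stayed under 16 on all 9 arrays, with highest signals of 12.1 and 8.09. Over these 6 genes 1 rose and none fell in either line against wild type, beside 11.4% of all probe sets called in L17 and 14.6% in sps1. At an unadjusted limma p under 0.05 1 was lower in L17 and 2 in sps1, beside 12.3% and 14.9% of all probe sets. The median log2 fold change of the 6 was -0.14 in L17 and -0.29 in sps1.

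Genes that make the xyloglucan backbone were represented by 4 CSLC genes out of 20 in the list of xyloglucan synthesis. CSLC04 encodes the glucan synthase known as the main enzyme for the backbone in Arabidopsis. It read 1769, 1932 and 1628 on the wild type arrays, 646, 570.4 and 576 on the L17 arrays, and 524, 322 and 533 on the sps1 arrays. Every L17 and sps1 array lay below every wild type array. CSLC04 fell by 1.55 in L17 (SE 0.20, limma adjusted p = 0.00188) and by 1.94 in sps1 (SE 0.20, limma adjusted p = 0.000451), and both calls held with each array left out. Between sps1 and L17 its log2 difference was -0.40, with an interval from -0.85 to 0.05 (limma adjusted p = 0.309).

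The other CSLC genes did not pass in any comparison. CSLC5, another member of the CSLC family, averaged 535 ± 88.3 in wild type, with 681.8 ± 69 for L17 and 497 ± 37 for sps1 (SD, n = 3). CSLC6 averaged 167 ± 48.7, 209 ± 13.6 and 182 ± 40.7, and CSLC12 30.1 ± 2.08, 21.1 ± 8.05 and 26.1 ± 12.1, in the same order of lines. The median log2 fold change of the 4 genes was -0.002 in L17 and -0.13 in sps1, so the fall was that of 1 of the 4 genes measured. Over all probe sets 11.4% were called in L17 and 14.6% in sps1 against wild type. The rest of the list was not measured.

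**Figure D5:**
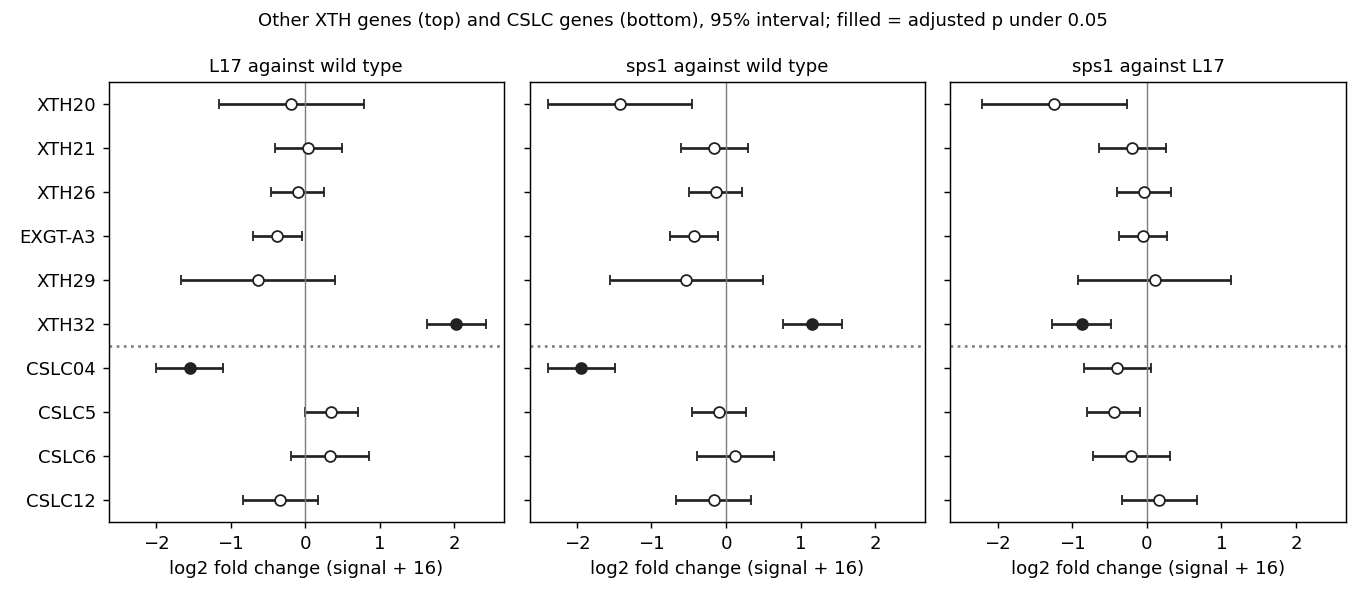
Log2 fold changes (signal + 16) of the other 6 XTH genes (above the dotted line) and of 4 CSLC genes (below it) in each comparison, as points with 95% intervals from the limma fit, filled where the adjusted p was under 0.05. XTH32 is filled above 0 and CSLC04 filled below 0 in both lines against wild type.

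Expansins loosen walls without cutting xyloglucan, and 18 of 36 were measured. In L17 5 rose and 1 fell, in sps1 2 rose and 4 fell against wild type, and 1 was higher and 5 lower in sps1 than in L17, with median log2 fold changes of 0.12, -0.22 and -0.35. Over all probe sets 11.4%, 14.6% and 6.86% were called in these comparisons. Some of the expansin calls were not stable, since that of EXLA2 in L17 was lost on leaving out any of the 9 arrays and that of EXPA20 in sps1 on leaving out any of 8. Between sps1 and L17 only the call of EXPA9 held with each array left out. Those of EXLA3, EXLA2, EXLB1, EXPA20 and EXPB1 were lost on leaving out any of 7, 6, 6, 5 and 4 arrays. Without wild type replicate 3 the counts against wild type were 4 and 1 in L17 and 2 and 3 in sps1. EXPA9 rose 2.82-fold in L17, from 1565 ± 201 to 4438 ± 409 (limma adjusted p = 0.000387). In sps1 it averaged 2288 ± 84, and its call there ended on leaving out wild type replicate 3 (adjusted p = 0.0582) or any 1 of 5 more arrays. EXPA16 fell from 203.8 ± 41.8 to 71.1 ± 22.5 in L17 and 42.3 ± 2.84 in sps1, in the same order of lines as XTH16. EXLB1 rose in both lines (limma adjusted p = 0.0165 in L17 and 0.000419 in sps1), though its L17 call was lost on leaving out wild type replicate 2 or L17 replicate 2 or 3 (up to 0.0651). It averaged 283 ± 87.3 in wild type, with 559 ± 58.2 for L17 and 1161 ± 81.2 for sps1 (SD, n = 3). EXLA3 rose in L17 from 56.8 ± 30.6 to 219 ± 9.07 (limma adjusted p = 0.00423) and averaged 88.1 ± 12.1 in sps1, where it passed on leaving out wild type replicate 3 (0.0162).

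For each XTH gene the 3 named genes with the most similar pattern were taken as those with the highest Pearson correlation of log2(signal + 16) over the 9 arrays, among 6875 probe sets with a mean signal of at least 100. These values describe 9 arrays that fall into 3 lines and share the same arrays and scaling. For XTH16 they were AT3G54940 (r = 0.993), AT1G27100 (0.987) and AT3G53370 (0.982). AT3G54940 averaged 952 ± 217 in wild type, with 400.04 ± 25.4 for L17 and 132 ± 62.5 for sps1. For XTH18 they were AT5G06570 (0.963), AT2G39110 (0.959) and AT2G03200 (0.959). For XTH19 they were AT2G39390 (0.976), AT5G62550 (0.969) and AT4G17470 (0.965). AT4G17470 averaged 309.7 ± 73.8 in wild type, with 1327 ± 326 for L17 and 81.2 ± 33.2 for sps1 (SD, n = 3).

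For XTH33 the 3 nearest patterns were AT4G10000 (r = 0.973), PMM (0.973), which encodes a phosphomannomutase of sugar nucleotide synthesis, and TUB1 (0.972), which encodes a beta-tubulin. TUB1 averaged 1184 ± 102 in wild type, with 3729 ± 498 for L17 and 2316 ± 178 for sps1 (SD, n = 3). XTH32 ranked 9 for XTH33, at r = 0.957, and the correlation of the pair within lines was 0.367. A correlation over 0.9 was reached by 121 probe sets for XTH16, 65 for XTH18, 53 for XTH19 and 100 for XTH33, so single names in these lists carry little weight. With wild type replicate 3 left out, those numbers were 206, 49, 142 and 108. Of the 3 names 1 stayed among the highest 3 for XTH16, 1 for XTH18, 1 for XTH19 and 2 for XTH33. The names that left the highest 3 still had correlations from 0.921 (AT2G39110 with XTH18) to 0.986 (AT1G27100 with XTH16).

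Since whole seedlings were used, fewer cells of a type and less RNA per cell cannot be told apart. Of 27 root and root hair markers 2 were measured, the expansins EXPA7 and EXPA18. Their summed signal was 45.7 to 127 in wild type, with 55.3 to 85.5 for L17 and 7.26 to 39.9 for sps1. Both markers were dim, with EXPA7 down to 4.55 in wild type and at 3.25 ± 0.874 in sps1 (SD, n = 3), and EXPA18 overlapped between sps1 and wild type. Neither marker passed the test, and in sps1 their log2 fold changes had a median of -0.84. Of 20 xylem markers GUT2 and IRX15 were measured, and their sums were 163 to 280 in wild type, with 161 to 211 for L17 and 160.5 to 181 for sps1, and neither passed the test. Of 25 seed storage and late embryogenesis genes 4 were measured, and their sums were 5996 to 13160 in wild type, with 8413 to 10169 for L17 and 3954 to 4180 for sps1. The wild type sum of 5996 was that of replicate 3 alone. Wild type replicates 1 and 2 gave 13160 and 13150, above every L17 array. Of the 4 genes OLEO3 rose in both lines, LEA4-5 fell in L17, and AtLEA4-1, LEA4-5 and LEA18 fell in sps1, where XTH16 and XTH18 fell too. Over all probe sets 11.4% were called in L17 and 14.6% in sps1 against wild type, 6.12% and 7.94% as lower. The sps1 call of AtLEA4-1 (limma adjusted p = 0.0369) was lost on leaving out any of 8 arrays, with a pseudocount of 1 (0.0621) and in the fit of 2 lines (0.094). Without wild type replicate 3 it was kept, and LEA18 was lower in L17 as well (0.0224). The L17 call of LEA4-5 was lost without L17 replicate 2 (limma adjusted p = 0.0565). That of OLEO3 in sps1 was lost without sps1 replicate 1 or 2 (up to 0.0561). The part of these markers in the XTH results was not tested.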

How the data were processed

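The authors deposited 1 table of linear probe set intensity values for 9 Affymetrix arrays of 1 colour. The submitters' processing notes name GCOS. How probes were summarised, to what target arrays were scaled and whether detection calls were made is not stated by the labels. The trimmed mean was 500.0 on every array, so the deposited intensity values were already scaled, and no further normalization was applied. Depth does not apply to arrays, and their number limits the precision. No 2 arrays held identical values.

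From these values log2(signal + 16) was computed, the 64 control probe sets were left out, and limma 3.58.1 in R 4.3.3 was fitted to the 9 arrays with line as the one factor, using eBayes and adjusting by Benjamini-Hochberg over 22746 probe sets. The code was tested on simulated data. Groups came from the sample titles. Of the probe sets 13513 name 1 gene, 503 several and 8730 are unnamed here, per the platform annotation, with symbols from the RefSeq table of TAIR10.1, which was used for names and gene order.

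The XTH genes, the lists and the rule for named genes were chosen with earlier results of these data known. The rule took all probe sets of the 4 XTH genes and of their family, up to 4 genes of a list with the smallest adjusted p, and for each XTH gene the 3 genes of highest correlation over the 9 arrays. Genes with several probe sets entered lists by the one with the highest mean signal. Lists of xyloglucan trimming, brassinosteroid and small heat shock protein genes had 0 members named here. The alternatives tried were pseudocounts of 1 and 64, a minimum mean signal of 100, a replicate block, median centring, quantile normalization, array weights, a trended and robust eBayes, fitting the 2 lines compared, an adjusted p under 0.01, and leaving out each array.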

Additional observations from a re-analysis of the deposited data

How the results depend on the processing

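No log2 fold change of the 4 XTH genes changed sign under any of the 19 alternatives to each comparison. By construction the fold change cannot move with a replicate block, a minimum mean signal, a trended and robust eBayes or 2 lines fitted. The same holds for the stricter threshold and for leaving out an array of the line not compared. Only the remaining alternatives could change the sign. In L17 against wild type 2 genes were called as reported and 1 with a replicate block (XTH16 lost, limma adjusted p = 0.0716). The number was 1 at an adjusted p under 0.01, and 1 to 2 with an array left out. It was 3, with XTH19 added, for a pseudocount of 64, a minimum mean signal of 100, or a trended and robust eBayes. In sps1 against wild type 3 were called, 2 with a replicate block (XTH33 lost, adjusted p = 0.0779), 2 in the fit of 2 lines (XTH33 lost, 0.0692), 1 at an adjusted p under 0.01, and 1 to 3 with an array left out. In sps1 against L17 2 were called, 1 after median centring, 0 with a replicate block, 0 at an adjusted p under 0.01, and 0 to 2 with an array left out. Where limma called 0, all 4 passed an unadjusted p under 0.05 with the block, and 2 to 3 with an array left out. The share of all probe sets passing that threshold in those fits is not given here, so these counts cannot be set against it. The labels state no pairing of arrays by replicate number. The deviations of same-numbered arrays from their line means correlated at -0.08 to 0.06, and those of arrays with different numbers at -0.12 to 0.10. Such correlations over all probe sets cannot tell whether some genes share a batch by number. In sps1 against wild type median centring took the median over all probe sets from -0.01 to 0.10 (log2), and the share of calls that were higher from 45.7% to 60.2%. In sps1 against L17 that share went from 45.8% to 59.3%. With that centring the log2 fold changes in sps1 were -1.30 for XTH16, -1.45 for XTH18, -0.35 for XTH19 and 0.71 for XTH33. The number of all probe sets called in L17 against wild type was 2601, against 1024 at an adjusted p under 0.01, 1611 with 2 lines in the fit, and 1437 to 1628 without an L17 array. In sps1 against wild type it was 3325, against 1474 at the stricter threshold and 2093 or 2087 without sps1 replicate 2 or 3. In sps1 against L17 it was 1560, against 569 at the stricter threshold, 1013 with the block, 3048 with array weights, 2626 without wild type replicate 3, and 719 to 931 without an array of either line. Genes with signals near 16 or below, such as XTH21, XTH26 and XTH20 in sps1, are measured too dimly for their order to be read.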

Other observations

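Other wall genes and growth hormone genes were sparsely named. The pectin methylesterase gene PME61 read 411, 326 and 188 on the wild type arrays, 21.7, 3.1 and 16.1 on the L17 arrays, and 15.04, 11.8 and 13.7 on the sps1 arrays. It fell in both lines (limma adjusted p = 0.000348 and 0.000287). Its signals there lay near or below the pseudocount of 16, too dim to give the size of the fall, and both calls held with each array left out. It was the 1 gene measured of 21 in the list of pectin synthesis and modification. COB, which orients cellulose deposition and was the 1 gene measured of 21 in the cellulose list, had log2 fold changes of 0.24 in L17 and 0.13 in sps1 and did not pass the test.

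Of 27 auxin response genes 6 were measured. IAA29 rose in L17 by 0.71 on the log2 scale (limma adjusted p = 0.0391), and leaving out any of the 9 arrays ended the call. Without wild type replicate 3 LBD16 and GH3.1 fell in L17 instead (limma adjusted p = 0.0312 and 0.049). GH3.1 was dim, at 1.95 to 15.4 on the L17 arrays, all below the pseudocount, and at 7.52 to 47.5 on the wild type arrays. The size of its fall therefore cannot be read. In sps1 GH3.3 gave -0.62 and LBD16 gave -0.67 (limma adjusted p = 0.0372 and 0.0393). The call of GH3.3 was lost with 7 of the 9 arrays left out in turn, wild type replicate 3 among them, and that of LBD16 with 8, though not with wild type replicate 3. No auxin response gene passed between sps1 and L17, where limma gave 1 at an unadjusted p under 0.05. Over all probe sets limma called 11.4% in L17 and 14.6% in sps1 against wild type, and 6.86% between sps1 and L17.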
